A study of Mus musculus with 6 samples.

Results

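Genes of the SLC38 and SLC7 families, and Slc3a2, the heavy chain of SLC7 light chains, were followed in whole hearts of 8-week-old mice, as 10 genes out of the 13634 tested. The genes were chosen by name as transporters of neutral and cationic amino acids, with earlier results of the same comparison known. The log2 signals of Slc38a4 in particular had been seen before this set of genes was put together. Differences between the genotypes are therefore given for these 10 genes as a description, with no p-value. How many of them passed the threshold, in the fit over all genes and in its alternatives, is given only as a count that supports nothing. A probe set is a group of short array probes that reports 1 transcript, and the platform annotation assigned 24 probe sets to these genes and to no other gene. Another 6 probe sets carry a symbol that is also a synonym of a member (Nat1, Nat2, Lat2 and Sat2) but belong to other genes by their gene identifiers and were left out. Of the 24 probe sets, 21 lay above the 40th percentile of their array on at least 3 of the 6 arrays, and each of the 10 genes kept at least 1.

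The arrays came from 3 DNMTs-Tg mice, which carry transgenes for the de novo DNA methyltransferase DNMT3A2 and its inactive partner DNMT3L, and from 3 wild-type mice, with 1 array for each mouse. DNMTs-Tg mice came from mating females of FVB-Tg(Ddx4-cre)1Dcas/J, where the Ddx4 promoter drives Cre recombinase in germ cells, with flox males. The strain of the wild-type mice and the promoter of the methyltransferase transgene are not given in the labels. In DNMTs-Tg mice both proteins are made in many somatic tissues, and the study looked for genes whose expression they alter through abnormal methylation. Nothing in the labels names littermates, so the tests measure the spread between these 6 mice.

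Amino acid transporters decide which amino acids a cell can take up. SLC38 proteins bring in glutamine, alanine and other small neutral amino acids together with sodium. SLC7 proteins include uniporters of arginine and lysine, and light chains that exchange large neutral amino acids and need the SLC3A2 heavy chain to reach the membrane. Leucine taken up this way feeds the growth-controlling kinase complex mTORC1. Slc38a4 is known as an imprinted gene in mice, read mainly from the paternal copy, and it lies beside Slc38a1 and Slc38a2 on chromosome 15.

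The array medians lay between 5.28 and 5.33 (log2). The transgene Dnmt3l read 12.19 to 12.38 in the DNMTs-Tg hearts and 5.17 to 5.48 in the wild-type hearts. The Y-linked gene Eif2s3y exceeded Xist on 5 arrays, and wild-type replicate 4 was the 1 array of female type (Xist 10.10, Eif2s3y 3.32). This sex-linked RNA went against the labelled sex for 4 mice, namely all 3 DNMTs-Tg mice and wild-type replicate 1. All 10 cardiomyocyte markers were measured, and their mean log2 signal was 13.89 to 14.09 in DNMTs-Tg and 14.06 to 14.08 in wild-type hearts. That mean joins opposite differences, and 0 of the 10 passed limma's threshold. Tnni3 (-0.24, log2), Myh6 (-0.18), Actc1 (-0.18), Pln (-0.17) and Myl2 (-0.14) were lower in all 3 DNMTs-Tg hearts. Actn2 (0.41) and Mybpc3 (0.34) were higher in all 3, and Ryr2 (-0.37), Tnnt2 (-0.01) and Myl3 (0.03) had overlapping groups. Of all probe sets, 26.5% had groups that did not overlap. DNMTs-Tg replicate 1 stood apart in markers of other cells. Relative to the wild-type mean, the 9 macrophage markers stood at 1.23 on that array, against -0.28 and -0.19 in replicates 5 and 6, and the 8 fibroblast markers at 1.43 against 0.40 and 0.23. Wild-type hearts stood at -0.13 to 0.16 for the macrophage and -0.23 to 0.30 for the fibroblast markers. The fibroblast genes of DNMTs-Tg replicate 1 were uneven. Postn read 12.77 (wild-type mean 9.24) and Col1a1 10.71 (8.02), but Dcn read 13.51 (13.09) and Tcf21 7.99 (7.83). Of the 7 endothelial markers 1 rose, the gene of von Willebrand factor, Vwf, which was higher in all 3 DNMTs-Tg hearts (1.39 ± 0.21, log2, SE, limma adjusted p = 0.0177). The mean of the endothelial list, which includes Vwf, stood at 0.04 to 0.29 in DNMTs-Tg and -0.03 to 0.04 in wild-type hearts. Among the other endothelial markers, Emcn was lower in all 3 DNMTs-Tg hearts (-0.19, log2), and Tek (-0.24) and Kdr (-0.11) also had negative differences. Pecam1 (0.07), Cdh5 (0.10) and Tie1 (0.04) had small positive differences with overlapping groups. In whole tissue, fewer cells of a type and less RNA per cell cannot be told apart.

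Slc38a4, a sodium-coupled transporter of small neutral amino acids, had the widest gap between the genotypes of any member. The probe set that stands for it, 1448889_at, read log2 signals of 9.94, 9.94 and 9.57 in DNMTs-Tg replicates 1, 5 and 6 and 6.45, 6.82 and 7.77 in wild-type replicates 1, 4 and 6. The lowest DNMTs-Tg heart thus lay above the highest wild-type heart, and wild-type replicate 6 was the nearest of the controls. The means were 9.82 ± 0.21 and 7.01 ± 0.68 (SD, n = 3 each), a log2 difference of 2.80 ± 0.31 (SE), or 6.99-fold. The second probe set, 1428111_at, read 8.91, 9.19 and 9.10 against 6.24, 6.12 and 7.56. It gave the same order of groups, with a log2 difference of 2.43 ± 0.35 (SE), or 5.39-fold. Spread was wider among the wild-type than among the DNMTs-Tg hearts for both probe sets (SD of 0.80 against 0.14 for 1428111_at). With any 1 array left out the log2 difference of 1448889_at stayed between 2.52 and 3.18, the highest without wild-type replicate 6, and that of 1428111_at between 2.17 and 2.89. Without wild-type replicate 4, the array of female type, the values were 2.71 and 2.17.

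**Figure D1:**
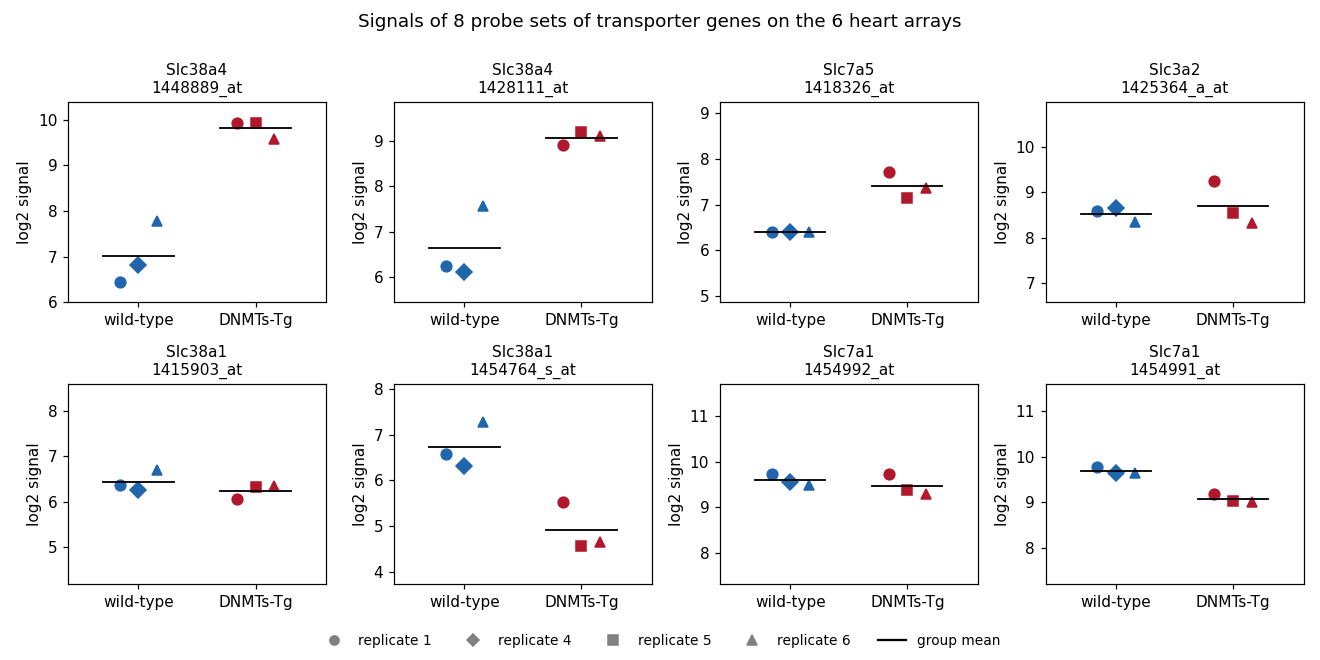
Log2 signals of 8 probe sets on the 6 arrays, with the genotypes on the horizontal axis, 1 point for each mouse and a line at the group mean; every panel spans the same number of log2 units. Slc38a4 lay between 9.57 and 9.94 in DNMTs-Tg hearts and between 6.45 and 7.77 in wild-type hearts by 1448889_at, Slc7a5 was also higher in all 3 DNMTs-Tg hearts, and Slc38a1 and Slc7a1 each have 1 probe set whose groups separate and 1 whose groups overlap.

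SLC38A4 is best known from liver, placenta and skeletal muscle, so markers of such cells were read on the same arrays. Of 5 hepatocyte markers only Apoa1 and Ttr were measured, with a mean log2 signal of 6.05 to 6.11 in DNMTs-Tg and 5.76 to 5.94 in wild-type hearts. Ttr was higher in all 3 DNMTs-Tg hearts (0.53 ± 0.13, log2, SE), whereas Apoa1 differed by -0.07 ± 0.13 with overlapping groups. Alb and Fgb, defining genes of the liver cell, were too dim to be kept. Of 6 skeletal muscle markers 3 were measured, at 11.06 to 11.18 in DNMTs-Tg and 9.89 to 10.79 in wild-type hearts. Acta1, the skeletal actin gene that stressed heart muscle also makes, differed by 2.19 ± 0.58 (log2, SE), whereas Myh2 differed by -0.01 and Ckm by -0.00, and the fast myosin genes Myh1 and Myh4 were too dim. By limma's test over all genes 0 of these 5 markers passed (adjusted p = 0.0635 for Ttr and 0.0752 for Acta1). The part of such cells in the Slc38a4 signal was not tested.

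Slc38a4 is encoded on chromosome 15 from 96994816 to 97055956 (RefSeq, GRCm38.p6), the last of the 3 SLC38 genes in a stretch of 484.539 kb. Slc38a1 lies from 96571418 to 96643438 and Slc38a2 from 96687392 to 96699728, and no protein-coding gene but these lies inside the stretch. Because the transgenes encode a methyltransferase of CpG sites and its cofactor, the CpG content of the promoters was read from RefSeq windows that run from 250 bases before to 50 bases after a transcript start. Windows were found for 7 of the 10 members, and the entries for Slc38a1, Slc38a3 and Slc7a5 are missing. The 3 windows of Slc38a4 each held 5 CpG sites, against a median of 7 over all 32851 windows of that length. The 25th and 75th percentiles were 3 and 20, and 38.0% of all windows held fewer than 5, so Slc38a4 lay within the common range. Slc38a2, next to Slc38a4, held 41, more than 96.5% of all windows, and the upstream window of Slc7a1 held 27. The sequences of these last 2 genes are shown beside the upstream start of Slc38a4 to let starts with fewer and more CpG sites be compared. Each runs 5′ to 3′ in the direction of transcription (all 3 on the minus strand), with CpG sites in capitals. The windows are chr15:97055907-97056206 for Slc38a4, chr15:96699679-96699978 for Slc38a2 and chr5:148399855-148400154 for Slc7a1.
Slc38a4: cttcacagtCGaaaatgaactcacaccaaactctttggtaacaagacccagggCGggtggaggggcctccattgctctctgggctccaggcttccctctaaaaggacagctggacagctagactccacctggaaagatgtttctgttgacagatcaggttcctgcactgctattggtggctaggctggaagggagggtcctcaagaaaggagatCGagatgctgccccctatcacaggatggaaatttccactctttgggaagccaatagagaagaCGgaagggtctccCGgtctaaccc
Slc38a2: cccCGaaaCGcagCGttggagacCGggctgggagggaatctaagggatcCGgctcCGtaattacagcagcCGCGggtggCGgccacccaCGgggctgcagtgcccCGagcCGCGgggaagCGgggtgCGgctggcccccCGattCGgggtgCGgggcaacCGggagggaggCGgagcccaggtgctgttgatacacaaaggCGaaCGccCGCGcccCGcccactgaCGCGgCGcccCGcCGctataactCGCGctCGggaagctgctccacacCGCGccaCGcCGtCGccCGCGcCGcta
Slc7a1: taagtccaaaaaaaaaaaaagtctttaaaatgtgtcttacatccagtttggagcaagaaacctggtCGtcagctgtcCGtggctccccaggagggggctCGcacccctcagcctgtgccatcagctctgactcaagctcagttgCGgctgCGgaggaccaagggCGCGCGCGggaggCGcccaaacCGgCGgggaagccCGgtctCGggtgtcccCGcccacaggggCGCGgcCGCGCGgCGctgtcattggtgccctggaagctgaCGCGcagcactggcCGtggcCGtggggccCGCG
The remaining windows held 26 CpG sites for Slc38a6, 20 for Slc7a8, 17 for Slc38a10, 15 for Slc3a2 and 7 for the downstream start of Slc7a1. Methylation of these sites was not analysed here. The letters TGATGNAA, a core of elements through which ATF4 answers amino acid shortage, were searched on both strands and cannot overlap a CpG site. They occurred in 3.97% of all windows and in 0 of the 10 member windows, which says only that they are not in these stretches.

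The genes measured around Slc38a4 did not share its pattern. Inside the stretch from Slc38a1 to Slc38a4 lie 7 other RefSeq entries that are not protein-coding, and they were not measured. Slc38a1 and Slc38a2, read by the probe sets that stand for them, differed by -0.19 ± 0.16 and -0.03 ± 0.23 (log2, SE). Of the 10 measured genes that flank the 3 transporters, 5 on each side, 1 passed limma's threshold (5.39% of all genes did). It was Gm17546, a long non-coding RNA gene from 95824459 to 95830072 within the span of Ano6, and the signals of these overlapping genes may not be separate. It fell by 1.86 ± 0.24 on the log2 scale (adjusted p = 0.00997), from 6.40 ± 0.17 to 4.54 ± 0.48 (SD, n = 3). Its signal lay below the 40th percentile of the array in DNMTs-Tg replicates 1 and 5. It thus passed the filter through the wild-type hearts, and the size of that fall is uncertain. The call ended without DNMTs-Tg replicate 5 (adjusted p = 0.0574), wild-type replicate 1 (0.0569) or wild-type replicate 4 (0.0502). Ano6 differed by 0.32, Arid2, a chromatin remodelling subunit, by -0.21, Scaf11 by -0.17 and Nell2 by 0.14. On the far side Amigo2 differed by -0.11, Pced1b by -0.14, Rpap3 by -0.25, Endou by 0.43 and Rapgef3 by 0.38 (adjusted p = 0.177 to 0.708 over these 9 genes).

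**Figure D2:**
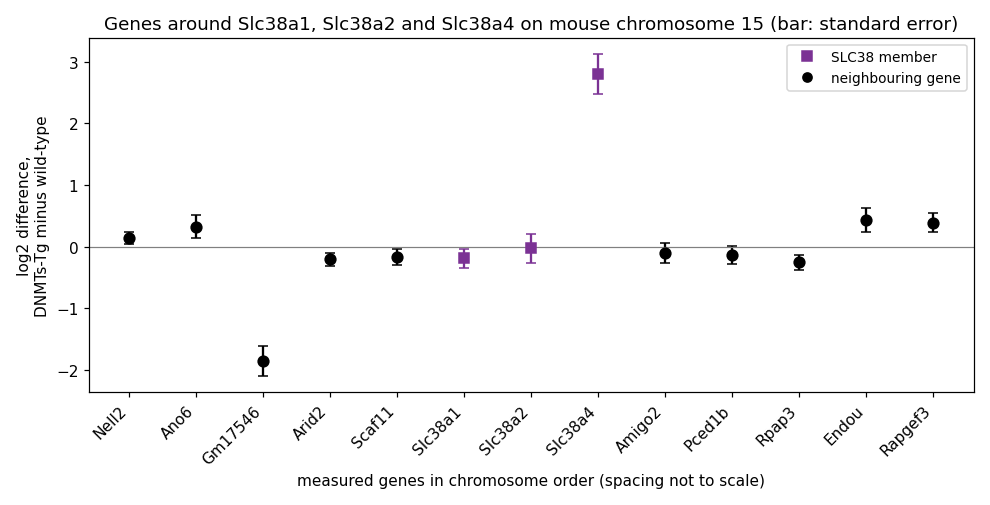
Log2 difference (DNMTs-Tg minus wild-type, with standard error) of 13 measured genes in their order along mouse chromosome 15, with members as squares and neighbours as circles; spacing is not to scale. Slc38a4 stands at 2.80 between Slc38a2 at -0.03 and Amigo2 at -0.11, and Gm17546 stands at -1.86.

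Slc38a1, which carries glutamine into cells, was read by 2 probe sets that disagreed. The one that stands for the gene, 1415903_at, read 6.07, 6.33 and 6.35 in DNMTs-Tg replicates 1, 5 and 6 and 6.37, 6.25 and 6.71 in wild-type replicates 1, 4 and 6, so the groups overlapped. The other, 1454764_s_at, read 5.53, 4.55 and 4.66 against 6.59, 6.32 and 7.28. All 3 DNMTs-Tg hearts lay below all wild-type hearts by this probe set, by -1.81 ± 0.32 (log2, SE), or 3.51-fold lower, and replicates 5 and 6 fell under the 40th percentile of their array. Leaving out 1 array gave -2.12 to -1.54. The genotype differences of the probe sets differed by -1.62 log2 units. The suffix _s marks probes that match more than 1 transcript, and the platform annotation names no gene but Slc38a1 for it. The difference between the 3′ and 5′ probe sets of Gapdh, a measure of RNA integrity, was 0.53 to 0.75 in DNMTs-Tg and 0.40 to 0.50 in wild-type hearts. The same difference for Actb overlapped between the groups, at 0.91 to 1.40 and 1.09 to 1.25. The part of RNA integrity in disagreements between probe sets was not tested.

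Slc38a2, the amino-acid-responsive member of the family, was read by 3 probe sets. The one that stands for the gene, 1426722_at, read 12.22, 11.92 and 11.34 in DNMTs-Tg hearts and 11.56, 12.05 and 11.96 in wild-type hearts. The groups overlapped, with DNMTs-Tg replicate 1 the highest heart and replicate 6 the lowest, and the same held for 1429593_at (-0.09 ± 0.23). The third, 1429594_at, was lower in all 3 DNMTs-Tg hearts, by -0.32 ± 0.15 (log2, SE). Slc38a3, a glutamine carrier that can run in either direction, read 7.26, 8.21 and 8.38 against 8.18, 8.50 and 8.36 by 1418706_at. DNMTs-Tg replicate 1 was the lowest heart, and the difference of -0.40 ± 0.27 (log2, SE) was -0.05 without it. Its second probe set differed by -0.19 ± 0.17 with overlapping groups.

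Slc38a6 and Slc38a10, members whose cargo is less well defined, showed small differences. Slc38a6 read 6.51, 6.14 and 6.30 against 6.08, 6.01 and 6.11 by 1457266_at, which left every DNMTs-Tg heart above the wild-type hearts by a small margin (0.25 ± 0.14, log2, SE), and its other probe set was dim on all 6 arrays. Slc38a10 had 7 probe sets, with differences from -0.17 to 0.27. The one that stands for the gene, 1456241_a_at, read 10.43, 10.34 and 10.53 against 10.60, 10.49 and 10.33 and overlapped. The 3 probe sets of Slc38a10 whose groups separated did not point 1 way, since 1427294_a_at was lower (-0.17) and 1429979_a_at (0.16) and the dim 1434616_at (0.27) were higher.

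Slc7a5, the light chain that exchanges leucine and other large neutral amino acids, was the second member with a wide gap. Its single probe set read 7.72, 7.15 and 7.36 in DNMTs-Tg replicates 1, 5 and 6 and 6.39, 6.39 and 6.40 in wild-type replicates 1, 4 and 6. Every DNMTs-Tg heart was higher, and the wild-type hearts hardly varied. Wild-type replicates 1 and 4 hold exactly the same value, 6.38959, and the cause of this tie was not tested. The means were 7.41 ± 0.29 and 6.39 ± 0.01 (SD, n = 3 each), a log2 difference of 1.02 ± 0.16 (SE), or 2.03-fold. The difference was 0.86 without DNMTs-Tg replicate 1 and reached 1.15 without replicate 5. Its heavy chain partner Slc3a2 did not separate the genotypes. Slc3a2 read 9.25, 8.55 and 8.33 against 8.58, 8.65 and 8.36, with the highest value in DNMTs-Tg replicate 1 and the lowest in replicate 6 (0.18 ± 0.23, log2, SE). Without DNMTs-Tg replicate 1 it stood at -0.09. Slc7a8, another light chain for neutral amino acids, read 5.96, 5.48 and 5.37 against 5.45, 5.41 and 5.88 and overlapped as well (0.02 ± 0.20). DNMTs-Tg replicate 1, the highest heart for all 3 genes, was also the one whose macrophage markers stood at 1.23 and fibroblast markers at 1.43, and their part in these signals was not tested.

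Slc7a1, the main uniporter of arginine and lysine, had 3 probe sets. The one that stands for the gene, 1454992_at, read 9.73, 9.39 and 9.29 in DNMTs-Tg hearts and 9.73, 9.56 and 9.50 in wild-type hearts, so that DNMTs-Tg replicate 1 lay within the wild-type range (-0.13 ± 0.14, log2, SE). The second, 1454991_at, read 9.18, 9.03 and 9.01 against 9.78, 9.63 and 9.64. It was lower in all 3 DNMTs-Tg hearts, by -0.61 ± 0.11, or 1.52-fold, and stayed between -0.66 and -0.56 with any 1 array left out. The genotype differences of these probe sets differed by -0.48 log2 units. Both carry the same accession in the platform annotation, and which stretch of the transcript each reads is not known here. The third probe set was dim on all 6 arrays.

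**Figure D3:**
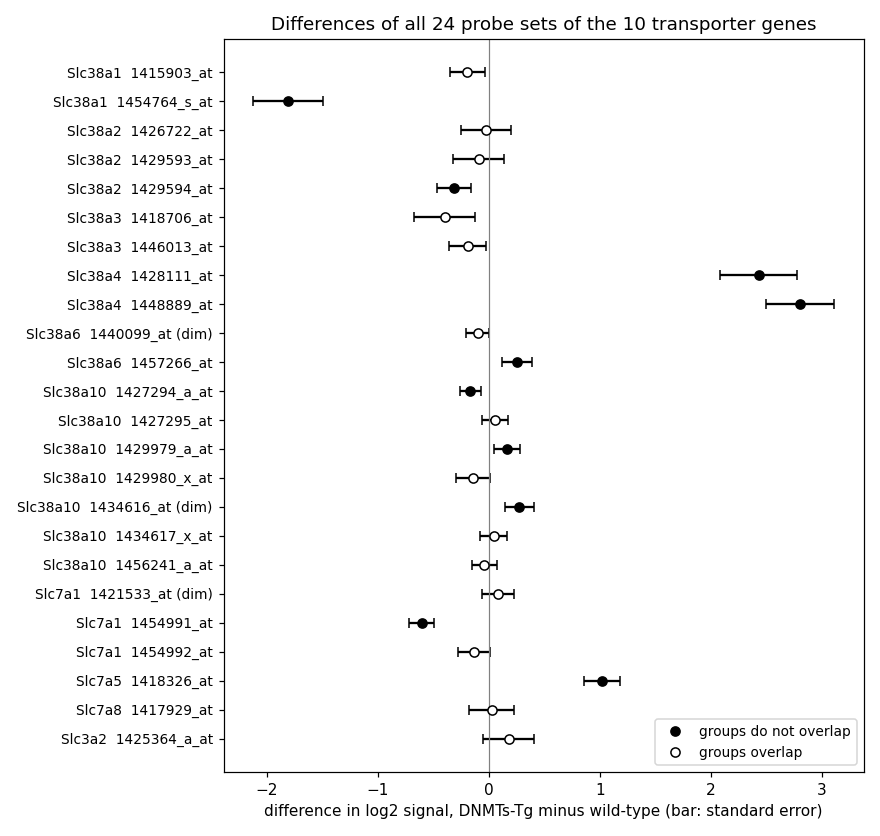
Log2 difference (DNMTs-Tg minus wild-type) with standard error of the 24 probe sets, with filled points where the groups do not overlap and open points where they do; "dim" marks the 3 probe sets left out by the filter. The Slc38a4 probe sets at 2.43 and 2.80, Slc7a5 at 1.02 and 1454764_s_at of Slc38a1 at -1.81 lie farthest from 0.

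Counted over the 10 chosen genes, 10 of the 24 probe sets had groups that did not overlap, 6 of them higher and 4 lower in DNMTs-Tg hearts, where 26.5% of all 45037 probe sets did so. In limma's fit of every probe set without a filter, 5 of the 24 were past an adjusted p of 0.05, against 2.11% of all. They were both of Slc38a4 and that of Slc7a5, which were higher, and 1454764_s_at of Slc38a1 and 1454991_at of Slc7a1, which were lower. With 1 probe set for each gene, Slc38a4 and Slc7a5 were the 2 of 10 past that threshold, against 5.39% of all genes tested, 2.24% higher and 3.15% lower. Since the genes were chosen with this comparison known, nothing is read from these counts. The count was 1 without any 1 of the wild-type arrays, where Slc7a5 dropped out. The median difference over the 10 genes was -0.00 (log2), with 5 above and 5 below 0, and over all genes it was 0.01. When the kept probe sets of a gene were averaged, Slc38a1 stood at -1.0 and the count was 3. That mean joins -0.19 with -1.81, and the probe set behind the second value was above the 40th percentile on only 1 of 3 DNMTs-Tg arrays and passed the filter through the wild-type hearts. Slc7a1 then stood at -0.37.

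The genes whose signal followed that of Slc38a4 most closely over the 6 arrays were Tor2a (Pearson r = 0.994), the collagen lysyl hydroxylase gene Plod1 (0.994), the glycosyltransferase gene Mgat4b (0.992), the heat shock factor gene Hsf2 (0.992) and the adaptor subunit gene Ap1s1 (0.992). Their own log2 differences were smaller, from 0.40 for Ap1s1 to 0.87 for Plod1. The closest to Slc7a5, looked up after its values were seen, were Cers6 (0.996), Usp18 (0.995), Mindy1 (0.995), the serine synthesis gene Psat1 (0.994) and Rab13 (0.993). These are the highest values among all genes tested over points that share a genotype difference, and they carry no test.

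Other amino acid transporters moved in both directions. Of 45 such genes listed, 26 were measured, of which 1 rose, 2 fell and 23 did not pass (11.5% called, against 5.39% of all genes). Their median log2 difference was 0.08. The gene that rose was Slc1a5, a sodium-dependent exchanger of glutamine and other neutral amino acids. It read 7.69, 7.29 and 7.34 in DNMTs-Tg hearts and 6.89, 6.48 and 6.64 in wild-type hearts, a log2 difference of 0.77 ± 0.16 (SE, limma adjusted p = 0.0436). The groups did not overlap, but the mean of its probe sets gave 0.41 (adjusted p = 0.114) and the call also ended with no filter (adjusted p = 0.0504), so that 0 genes of the list rose under either setting. Slc36a2, a proton-coupled carrier of glycine, alanine and proline, fell most. It read 5.20, 6.36 and 7.40 in DNMTs-Tg replicates 1, 5 and 6 against 8.57, 8.55 and 8.97, a 5.21-fold lower signal (log2 difference -2.38 ± 0.49, SE, adjusted p = 0.0415). The DNMTs-Tg hearts were all lower and spread widely, with replicate 1 farthest from the controls, and without that array the difference was -1.82. Slc1a1, a glutamate and aspartate carrier, fell by 1.09 ± 0.19 on the log2 scale (adjusted p = 0.0259), from 5.65 ± 0.08 to 4.56 ± 0.38 (SD, n = 3), and DNMTs-Tg replicates 1 and 5 were under the 40th percentile of their array. It thus passed the filter through the wild-type hearts, the size of the fall is uncertain, and with a filter at the 60th percentile it was not tested and 2 genes of the list were called. The calls of Slc1a5, Slc36a2 and Slc1a1 each ended without DNMTs-Tg replicate 5 and without any 1 of the wild-type arrays. The adjusted p-values were then 0.0947 to 0.158 for Slc1a5, 0.128 to 0.147 for Slc36a2 and 0.0970 to 0.105 for Slc1a1. In DNMTs-Tg replicate 1 the macrophage markers stood at 1.23 and the fibroblast markers at 1.43, and their part in these differences was not tested.

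The 6 other SLC38 and SLC7 genes that were measured did not pass. Among the SLC38 genes, the lysosomal arginine sensor Slc38a9 differed by 0.25 (adjusted p = 0.317) and the lysosomal carrier Slc38a7 by -0.04 (adjusted p = 0.851). Among the SLC7 genes, Slc7a2, a cationic carrier like Slc7a1, differed by -0.42 (adjusted p = 0.315), its relative Slc7a4 by -0.29 (adjusted p = 0.385), and the light chains Slc7a6 and Slc7a7 by 0.53 (adjusted p = 0.345) and 0.14 (adjusted p = 0.707). These 6 genes had overlapping groups.

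Genes that sense amino acids showed 0 calls by limma among 24 measured of 25 listed, against 5.39% of all genes, with a median log2 difference of -0.07. Lamtor2, a subunit of the Ragulator scaffold that holds mTORC1 at the lysosome, came closest at -0.45 ± 0.13 (SE, adjusted p = 0.0901). Next was the leucyl-tRNA synthetase gene Lars at 0.27 ± 0.09 (adjusted p = 0.125). Atf4, the transcription factor of amino acid shortage, read 10.81, 10.64 and 9.82 in DNMTs-Tg hearts and 9.94, 10.51 and 9.96 in wild-type hearts, and the groups overlapped.

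Of 18 genes of glutamine and arginine metabolism, 12 were measured, and 2 rose, 0 fell and 10 did not pass (16.7% called, against 5.39% of all genes). Their median log2 difference was 0.01. Glul, which encodes glutamine synthetase, read 12.77, 12.59 and 12.64 in DNMTs-Tg hearts and 11.78, 11.64 and 11.47 in wild-type hearts. All DNMTs-Tg hearts were higher, by 2.05-fold (log2 difference 1.04 ± 0.11, SE, limma adjusted p = 0.00465), and the call held with any 1 array left out (0.96 to 1.11). Odc1, the ornithine decarboxylase that starts polyamine synthesis, averaged 11.00 ± 0.35 in DNMTs-Tg and 10.17 ± 0.07 in wild-type hearts (SD, n = 3), a rise of 0.83 ± 0.18 (log2, SE, adjusted p = 0.0434). Its call ended without DNMTs-Tg replicate 5 and without any 1 of the wild-type arrays (adjusted p = 0.129 to 0.151), and also when arrays were set to a common median, where it just missed the threshold. Asparagine synthetase, Asns, an ATF4 target, differed by 0.36 with overlapping groups (adjusted p = 0.225). Gpt2, the mitochondrial alanine aminotransferase, differed by -1.28 ± 0.34 with every DNMTs-Tg heart lower and did not pass (adjusted p = 0.0780).

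**Figure D4:**
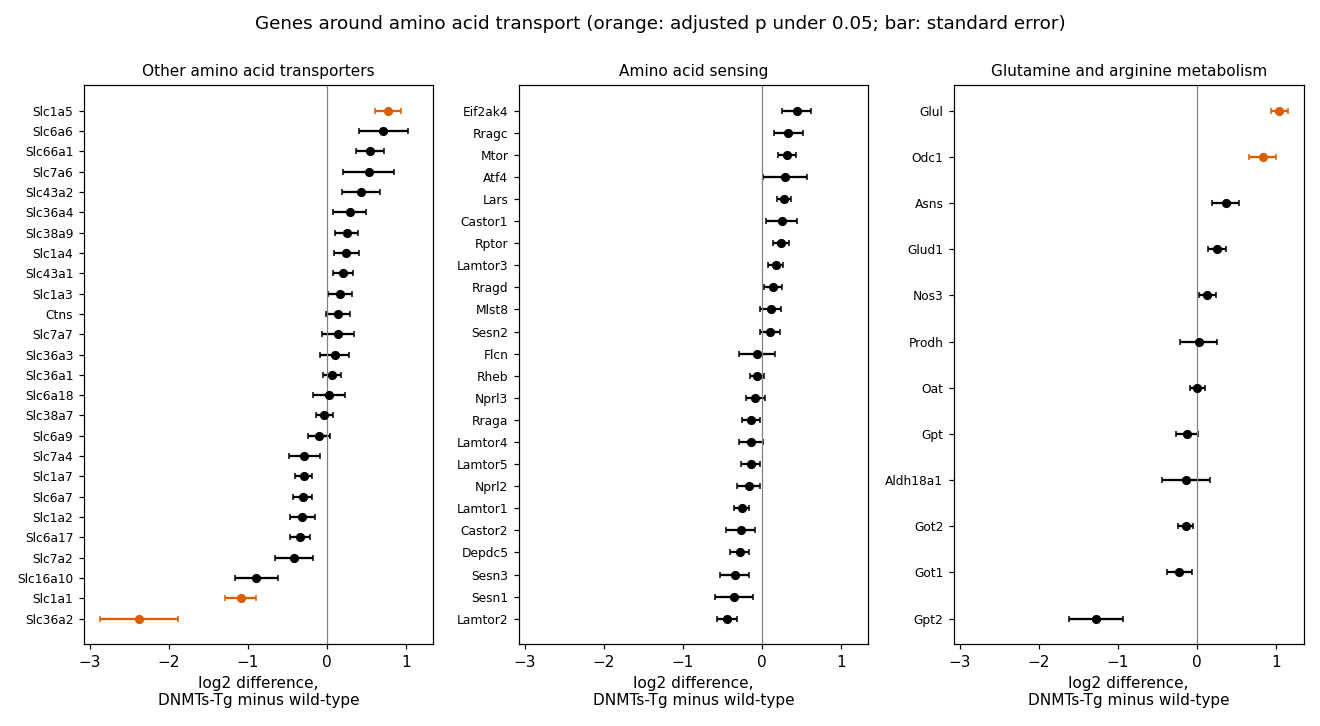
Log2 difference (DNMTs-Tg minus wild-type) with standard error for 26 other amino acid transporters, 24 amino acid sensing genes and 12 genes of glutamine and arginine metabolism, sorted within each panel, with genes past an adjusted p of 0.05 in orange. Slc1a5, Glul and Odc1 lie to the right of 0 and Slc1a1 and Slc36a2 to the left, and no sensing gene is in orange.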

How the data were processed

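Total RNA of 6 hearts was labelled with biotin and hybridised to Affymetrix GeneChip arrays, per the labels' protocols. The authors deposited 1 log2 value for each of 45101 probe sets and array. The scale was read from the values, which span 2.06 to 14.7. How they were normalized, and with which software, is not given in the sources used here, and no detection calls were used. Groups and replicate numbers came from the sample titles. Probe sets were named by the platform annotation, updated by gene identifier to GRCm38.p6, leaving 34945 with 1 symbol, of which 34741 matched.

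Probe sets above the 40th percentile of their array on at least 3 arrays were kept (27377), and the one with the highest mean stood for its gene. A 2-sided test by limma 3.58.1 (R 4.3.3, eBayes with a trend) was run on the 13634 genes, with Benjamini-Hochberg adjustment over all genes and a threshold of 0.05. All adjusted p-values come from that fit or from its stated alternatives. SEs of single member probe sets come from the same model on all 45037 probe sets that are no controls. With 3 arrays a group, exact permutation of the labels reaches p = 0.1 at the lowest, and the number of arrays limits the precision. Only the limma fit was tried on simulated data, with spreads taken from the wild-type arrays for both groups. The filter and the choice of probe sets were not part of that check. Apart from the choice of the probe set that stands for a gene, signals of different probe sets were not compared as levels. That choice used the mean over all 6 arrays, so it depends on both genotypes. In wild-type hearts 1454764_s_at of Slc38a1 averaged 6.73, above 6.44 for 1415903_at, which stands for the gene. Likewise 1454991_at of Slc7a1 averaged 9.68 in wild-type hearts, above 9.60 for 1454992_at, which stands for the gene.

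The members, gene lists and tests were chosen with earlier results of these data known. Named are every member, up to 6 passing genes of each list or otherwise the 2 with the smallest p, all measured neighbours and the 5 genes closest to Slc38a4. The genes closest to Slc7a5, and the relatives, Atf4, Asns, Gpt2 and single markers named with values, were added after seeing the values. As alternatives, each array was left out in turn, arrays were weighted, blocked by label number, quantile normalized or set to a common median, the filter was dropped or moved, probe sets were averaged and the trend was omitted.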

Additional observations from a re-analysis of the deposited data

How the results depend on the processing

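Of 139 recomputed differences of the members under the alternatives, 135 moved by less than the SD between replicates, though small differences turned sign. Slc38a2 (-0.03) reached 0.21 without DNMTs-Tg replicate 6 and 0.11 with array weights, Slc7a8 (0.02) reached -0.16 and Slc3a2 (0.18) reached -0.09 without DNMTs-Tg replicate 1, and Slc38a10 (-0.04) reached 0.02 without wild-type replicate 1. Of 234 for the other named genes 199 kept their direction and side of the threshold. The direction of Amigo2 (-0.11, from -0.23 without DNMTs-Tg replicate 6 to 0.041 without replicate 1) turned with the mean of probe sets (0.17) and without DNMTs-Tg replicate 1, and it was not called in any of these fits. Array weights, whose estimation stopped before its tolerance and ran from 0.203 for DNMTs-Tg replicate 1 to 5.63 for replicate 5, called 4822 genes, 11 other transporters, 10 sensing genes, 5 metabolism genes and 4 neighbours. With a common median 1 metabolism gene was called. The cause of these changes was not tested. With 1 array left out calls among all genes numbered 123 at the fewest (wild-type replicate 1 omitted) and 1604 at the most (DNMTs-Tg replicate 6 omitted), against 735 with all arrays, and calls ranged from 1 to 2 for members, from 0 to 5 for other transporters, from 1 to 3 for metabolism genes and from 0 to 1 for neighbours. The groups share only the label numbers 1 and 6, whose arrays did not deviate together (correlations of -0.05 and -0.08), so the numbers were not taken as pairs. With the label number as a replicate block 1 gene of all was called and 0 members, other transporters, metabolism genes and neighbours, with 1 residual degree of freedom. Dim signals have only a limited meaning here, since no background was measured.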
